A study of Mus musculus with 4 samples.

Results

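The genes described here are 36 genes of glucose use in skeletal muscle: the enzymes of glycolysis and of lactate formation, the enzymes that build and break down glycogen, and the carriers of glucose and lactate in the cell membrane. They were taken by name from a list of genes of these pathways, and all 36 were found among the 53647 genes of the count tables and all 36 passed the filter on low counts, as did 15173 genes in all. Of the 36, 9 were set apart as muscle forms, that is, members of an enzyme or carrier family for which striated muscle is the main site of expression: Slc2a4, Hk2, Pfkm, Pgam2, Eno3, Gys1, Pygm, Phka1 and Phkg1. The samples were wild-type mouse primary myotubes, the multinucleate cells formed when myoblasts fuse. Myoblasts came from the limb muscles of pups aged 2 to 3 days, were grown in medium with 20% fetal bovine serum and were differentiated in medium with 5% horse serum. In 1 group of 2 libraries the myotubes received recombinant EDA-A2 at 250 ng/ml for 24 h, and in the other group of 2 libraries they were labelled control. All cells were collected 72 h after the start of differentiation. EDA-A2 is a ligand of the tumour necrosis factor family that binds the receptor EDA2R, and the comparison asks how myotubes respond to it. The labels do not say what the control cells received, nor whether the 2 libraries of a group came from separate cultures, so every p-value below measures only the spread between these libraries, which may be technical.

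Glycolysis splits glucose into pyruvate in the cytosol and yields ATP without oxygen, and muscle lowers pyruvate to lactate when energy demand is high. Muscle fibres also store glucose as glycogen and release it through glycogen phosphorylase, which is switched on by phosphorylase kinase. For most steps the genome holds several genes, and during muscle development the forms found in many tissues give way in part to muscle forms, for example Eno1 to Eno3 and Slc2a1 to Slc2a4.

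The libraries held 29444155 to 29746863 read pairs counted on genes. Values are given as normalised counts, which are counts scaled for library size and composition by TMM. A gene is said to have risen or fallen only where its p in the quasi-likelihood test of edgeR, adjusted over all genes tested by the method of Benjamini and Hochberg, was under 0.05. The cultures carried the RNA of myotubes: the 10 myotube markers (Myh3, Myh8, Acta1, Ckm, Tnnt3, Mylpf, Mymk, Myog, Ttn and Des) took 2.81% and 2.73% of counts in control myotubes and 2.16% and 2.14% under EDA-A2. All 10 had a lower mean with EDA-A2 and 4 of them fell (Myh3, Myh8, Acta1 and Mylpf); over the 10 the median log2 difference was -0.31. Their part in the results below was not tested, and in bulk RNA fewer cells of a type and less RNA per cell cannot be told apart. The 5 markers of dividing cells took 0.0674% and 0.0815% in the controls and 0.0790% and 0.0765% with EDA-A2. Of the 5 macrophage markers, Ptprc and Adgre1 were at 2.02 normalised counts or fewer in every library, and Csf1r ran from 1.01 to 7.84. Mrc1 had 217 and 169 normalised counts in control myotubes and 282 and 199.5 under EDA-A2, and Cd68 had 55.6 and 63.5 against 79.4 and 67.8; both means were higher with EDA-A2 and neither gene was called. All 3 red blood cell markers were at 0 in every library. The fibroblast marker Lum was also at 0 in every library, whereas Col3a1 was abundant. Col1a1 was lower with EDA-A2 (log2 fold change -0.46), Dcn (0.48) and Pdgfra (0.16) were higher, and no fibroblast marker was called. Of the 5 markers of myoblasts and satellite cells, Vcam1 rose (log2 fold change 0.53) and Cdh15 fell (-0.47). The means of Pax7, Myf5 and Myod1 were lower with EDA-A2 and none of these was called. All 5 genes listed as NFkB responders rose, and the median of their log2 fold changes was 1.43.

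By edgeR 2 of the 36 genes were called with EDA-A2, and both were among the genes set apart as muscle forms. Slc2a4, which encodes the insulin-responsive glucose transporter GLUT4, and Eno3, which encodes the muscle enolase, fell, and no member rose. These 2 of 36 (5.56%) compare with 2.13% of all genes tested that fell and 2.45% that rose. At an unadjusted p under 0.05, 8 members were lower and 2 were higher, together 27.8% of the members, against 15.6% of all genes tested in either direction. By DESeq2's Wald test, no member rose and 3 fell, namely Aldoa, Pgam2 and Eno3, while Slc2a4 was not called (adjusted p = 0.0777).

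Most members were nevertheless slightly lower in the treated libraries. Of the 36, 29 had a lower mean and 7 a higher one, the log2 fold changes ran from -0.42 to 0.60, and their median was -0.10. Over all genes tested the median was -0.002 and 50.5% were lower. Many members are very abundant, and among the 5688 genes with a mean of at least 1000 normalised counts the median was -0.016 and 55.7% were lower. Both EDA-A2 libraries lay under both control libraries for 16 members (44.4%), against 22.2% of all genes tested, and over both for 4 members, against 22.8%. Scaling by total counts in place of TMM moved the median of the members to -0.045 and that of all genes to 0.053, and left 24 members lower. For a single gene, the standard error of a member's log2 fold change had a median of 0.077, and the smallest absolute log2 fold change called in any gene was 0.24. The summed share of counts of the 36 genes was 3.23% and 3.03% in control myotubes and 2.93% and 2.97% under EDA-A2, so the groups did not overlap, but the control libraries differed from each other by more than control replicate 2 differed from the EDA-A2 libraries.

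**Figure D1:**
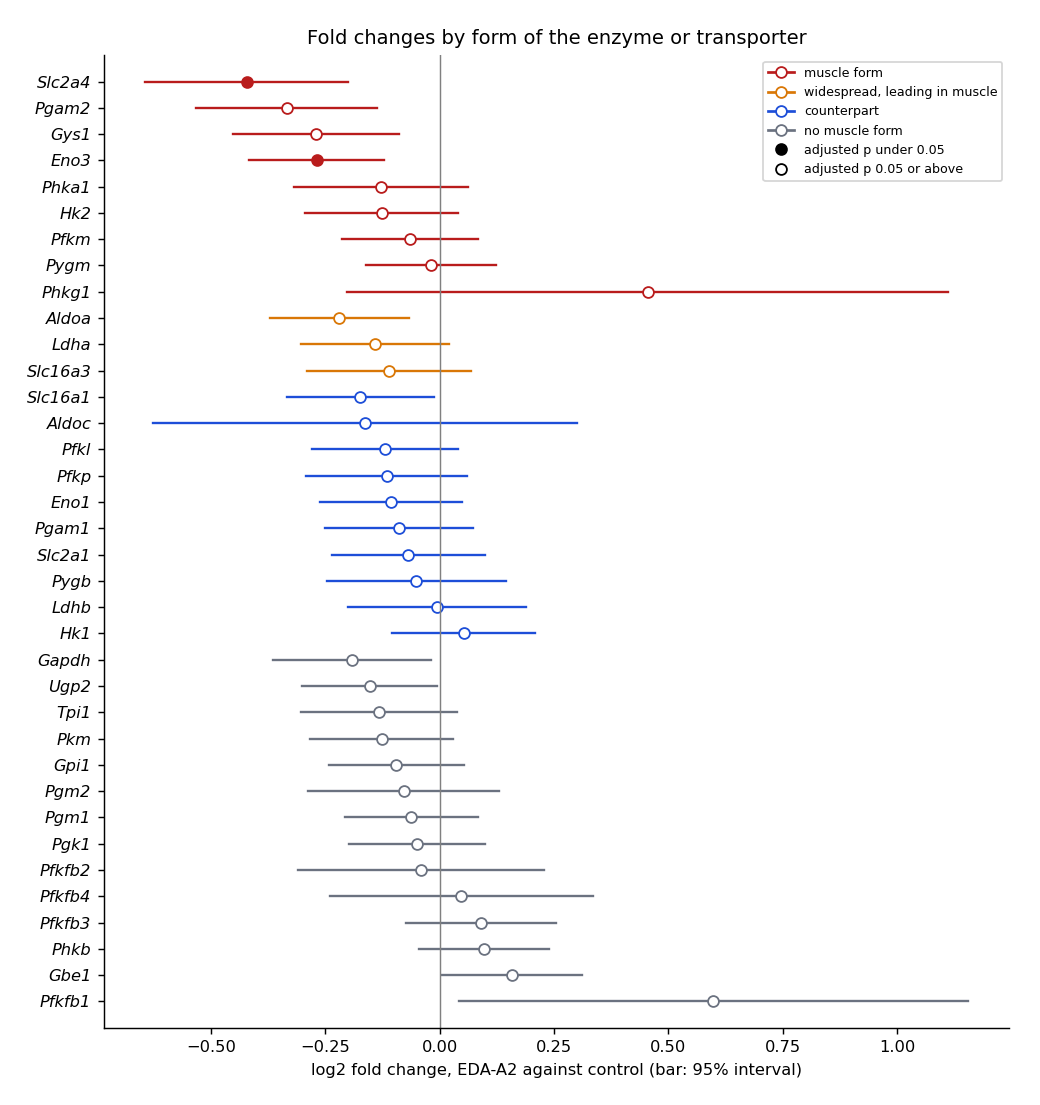
Log2 fold change of each of the 36 genes, EDA-A2 against control, with its 95% interval from the edgeR fit; 2 libraries a group. Colours give the form of the gene, filled points are the 2 genes with an adjusted p under 0.05 (Slc2a4 and Eno3), and 29 of the 36 points lie left of 0.

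The 9 muscle forms held both calls. Of them 8 were lower, and the median of the 9 was -0.13 on the log2 scale. Of the 27 other members 21 were lower and 0 were called in either direction by edgeR, with a median of -0.09 and with 6 members at an unadjusted p under 0.05; DESeq2 called 1 of them, Aldoa, lower. Among those 27, the 3 widespread forms that lead in muscle (Aldoa, Ldha and Slc16a3) had a median of -0.14. The 10 counterparts of the muscle or muscle-leading forms had a median of -0.10, and the 14 genes with no muscle form listed here -0.05. Of the counterparts, Aldoc, Ldhb and Slc16a1 belong to the muscle-leading forms. The muscle forms Gys1, Phka1 and Phkg1 have no counterpart among the members. The difference between the classes was not tested.

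The promoters of Slc2a4 and Eno3, the 2 genes that fell, of Eno1, the widespread counterpart of Eno3, and of Pgam2, the muscle form with the largest decrease among those not called, are shown to set muscle forms beside a counterpart; Pgam2 was added after its values were seen. Each sequence is the 250 bases before the start of the canonical transcript in GRCm39, read 5′ to 3′ on the strand of the gene. Capitals mark the matches found, on either strand, to the E-box CANNTG bound by myogenic factors, to the hypoxia response cores ACGTG and GCGTG, and to the MEF2 site. Slc2a4 lies on the minus strand and its window is chr11:69839062-69839311; Eno3 lies on the plus strand at chr11:70547492-70547741. Eno1 lies on the plus strand at chr4:150320893-150321142, and Pgam2 lies on the minus strand at chr11:5753760-5754009.

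Slc2a4: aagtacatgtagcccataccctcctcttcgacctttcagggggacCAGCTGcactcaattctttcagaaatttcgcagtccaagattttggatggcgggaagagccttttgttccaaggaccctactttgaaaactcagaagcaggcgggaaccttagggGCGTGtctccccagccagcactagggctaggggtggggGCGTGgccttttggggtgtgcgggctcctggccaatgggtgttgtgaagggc

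Eno3: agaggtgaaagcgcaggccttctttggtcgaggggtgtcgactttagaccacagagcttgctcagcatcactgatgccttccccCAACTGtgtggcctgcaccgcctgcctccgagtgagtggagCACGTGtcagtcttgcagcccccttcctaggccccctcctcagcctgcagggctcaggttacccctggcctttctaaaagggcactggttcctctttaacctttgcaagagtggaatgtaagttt

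Eno1: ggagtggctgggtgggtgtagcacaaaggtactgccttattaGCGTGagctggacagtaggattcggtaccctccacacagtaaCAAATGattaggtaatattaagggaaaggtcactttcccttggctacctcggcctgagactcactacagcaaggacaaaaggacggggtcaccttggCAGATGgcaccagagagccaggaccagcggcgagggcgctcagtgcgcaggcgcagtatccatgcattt

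Pgam2: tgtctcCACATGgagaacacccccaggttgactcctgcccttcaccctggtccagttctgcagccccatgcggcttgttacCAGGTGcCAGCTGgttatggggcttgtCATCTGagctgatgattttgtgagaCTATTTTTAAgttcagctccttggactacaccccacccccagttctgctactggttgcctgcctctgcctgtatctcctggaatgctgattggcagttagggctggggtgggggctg

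The Slc2a4 window held 1 E-box, at -205 to -200 from the start, and 2 GCGTG cores. The Eno3 window held 2 E-boxes, and the one at -125 to -120 is CACGTG, which also holds ACGTG on both strands. Pgam2 held 4 E-boxes and a MEF2 site at -117 to -108, and Eno1 held 2 E-boxes and 1 GCGTG core. Over the members, 25 of 36 windows held an E-box (69.4%), against 64.8% of the 21770 promoters searched, and 8 of the 9 muscle forms held one. ACGTG was found in 14 members (38.9%), against 17.0% of all promoters, and GCGTG in 16 (44.4%), against 31.2%. TATAAA was found in 3 members (8.3%), against 11.9%, the MEF2 site in Pgam2 alone (2.8%), against 1.7%, and the kappaB site in Pgm1 alone (2.8%), against 4.2%. These matches describe letters in a window and were not tied to the response.

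Glucose and lactate enter and leave the fibre through membrane carriers. All 4 carriers had a lower mean with EDA-A2, and 1 fell. Slc2a4 (ENSMUSG00000018566, on chromosome 11 from 69831006 to 69839070) had normalised counts of 616 and 637 in control myotubes and of 432 and 503 under EDA-A2. Both treated libraries lay under both controls, and the gap to the nearest control was larger than the spread within either group. The log2 fold change was -0.42 with an SE of 0.10 and a 95% interval from -0.64 to -0.20 (edgeR adjusted p = 0.0304). DESeq2's Wald test gave Slc2a4 an adjusted p of 0.0777, which did not pass. Slc2a1, which encodes the basal glucose transporter GLUT1, had 17158 and 14642 counts in the controls and 15402 and 14922 with EDA-A2. The treated values sat between the control values, and the log2 fold change was -0.07 with an interval from -0.24 to 0.10 (edgeR adjusted p = 0.768).

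Slc16a1 encodes MCT1, a carrier of lactate and other monocarboxylates, and had 8828 and 7948 counts in the controls and 7079 and 7794 with EDA-A2. Its groups did not overlap, but the log2 fold change of -0.17 ± 0.07 (SE) did not pass the test (edgeR adjusted p = 0.269). Slc16a3 encodes MCT4, the lactate exporter of glycolytic cells, and had 1535 and 1331 counts in the controls and 1317 and 1337 with EDA-A2. Its groups overlapped, with a log2 fold change of -0.11 and an interval from -0.29 to 0.07.

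At the entry to glycolysis, hexokinases phosphorylate glucose, and glucose-6-phosphate isomerase, encoded by Gpi1, turns the product into fructose-6-phosphate. None of the 3 genes passed the test, and their edgeR adjusted p ran from 0.5 to 0.825. Hk2, the insulin-responsive muscle form, had 13369 and 11354 counts in the controls and 11301 and 11333 with EDA-A2. The EDA-A2 libraries lay just under control replicate 2 and well under control replicate 1, and the log2 fold change was -0.13 with an interval from -0.29 to 0.04. Hk1, the widespread form, had 13483 and 12068 counts in the controls and 13601 and 12894 with EDA-A2, and its log2 fold change of 0.05 was the highest of the group. Gpi1 had a log2 fold change of -0.09, with both treated libraries under both controls.

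At the next steps phosphofructokinase commits the sugar to glycolysis, aldolase splits it and Tpi1 interconverts the products. All 6 genes had a lower mean with EDA-A2 and none was called by edgeR, with 1 at an unadjusted p under 0.05. Pfkm, the muscle phosphofructokinase, had 14937 and 15719 counts in the controls and 14138 and 15185 with EDA-A2. The groups overlapped, and the log2 fold change of -0.06, with an interval from -0.21 to 0.08, was the least negative of the 6. Pfkl, the liver form, had 7663 and 6705 counts in the controls and 6768 and 6463 with EDA-A2, and Pfkp, the platelet form, had 5777 and 4855 against 5096 and 4715. In both genes the groups overlapped and the log2 fold change was -0.12.

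Aldoa, the aldolase of muscle and many other tissues, had 119960 and 114858 counts in the controls and 99007 and 102618 with EDA-A2. The groups were well separated, and the log2 fold change was -0.22 with an SE of 0.07 and an interval from -0.37 to -0.07, which missed the threshold after adjustment (edgeR adjusted p = 0.108). DESeq2's Wald test gave it an adjusted p of 0.0316, and over the edgeR alternatives the adjusted p ran from 0.106 to 0.714. Aldoc, the brain form, was scarce, with 107 and 77.6 counts in the controls and 81.4 and 83.5 with EDA-A2. Its groups overlapped, and the interval of its log2 fold change, from -0.63 to 0.30, was the widest of these 6 genes. Tpi1 had a log2 fold change of -0.13 and did not pass the test.

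The 4 Pfkfb genes encode enzymes that make and remove fructose-2,6-bisphosphate, the main activator of phosphofructokinase. They formed the only role group in which most genes, 3 of 4, had a higher mean with EDA-A2, and none was called. Pfkfb1 had 52.5 and 36.3 counts in the controls and 67.6 and 66.8 with EDA-A2. The treated libraries lay over both controls, and the log2 fold change of 0.60 was the highest of all members, with an SE of 0.26 and an interval from 0.04 to 1.15 (edgeR adjusted p = 0.271). Pfkfb3, the most abundant of the 4, differed by 0.09 on the log2 scale, and Pfkfb4 by 0.05. Pfkfb2 had 345 and 290.4 counts in the controls and 304 and 314 with EDA-A2, so that its treated values sat between its controls.

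The 7 genes of lower glycolysis encode the enzymes from glyceraldehyde-3-phosphate to pyruvate, and all 7 had a lower mean with EDA-A2. In 6 of them (85.7%) both treated libraries lay under both controls, against 22.2% of all genes tested, and 1, Eno3, fell. Eno3 (ENSMUSG00000060600, on chromosome 11 from 70546593 to 70553340) stood at 16856 and 17727 normalised counts in control myotubes and at 13937 and 14765 under EDA-A2. The groups were apart by more than the spread within either, and the log2 fold change was -0.27 with an SE of 0.07 and an interval from -0.42 to -0.12 (edgeR adjusted p = 0.037). Eno1, the widespread enolase, had 81672 and 75587 counts in the controls and 71784 and 74295 with EDA-A2. Its groups also did not overlap, but the log2 fold change was -0.11 with an interval from -0.26 to 0.05 (edgeR adjusted p = 0.556).

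Pgam2, the muscle phosphoglycerate mutase, had 3374 and 4245 counts in the controls and 2908 and 3136 with EDA-A2. Both treated libraries lay under both controls, which were far apart, and the log2 fold change of -0.33 ± 0.09 (SE) had an edgeR adjusted p of 0.0554. Pgam2 was called lower by DESeq2 (adjusted p = 0.046), and over the edgeR alternatives its adjusted p ran from 0.00364 to 0.442. Pgam1, the widespread form, had 7534 and 7031 counts in the controls and 6413 and 7276 with EDA-A2, with overlapping groups and a log2 fold change of -0.09. Pgk1, which makes the first ATP of the pathway, had 54393 and 54314 counts in the controls and 50941 and 54154 with EDA-A2, and its log2 fold change of -0.05 was the least negative of the 7. Gapdh, whose enzyme oxidises the triose and which is often used as a reference gene in muscle, had 220128 and 191860 counts in the controls and 176903 and 183704 with EDA-A2. The log2 fold change of Gapdh was -0.19 with an interval from -0.36 to -0.02, and it did not pass the test (edgeR adjusted p = 0.249). Pkm, which makes pyruvate, had a log2 fold change of -0.13 and did not pass either.

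**Figure D2:**
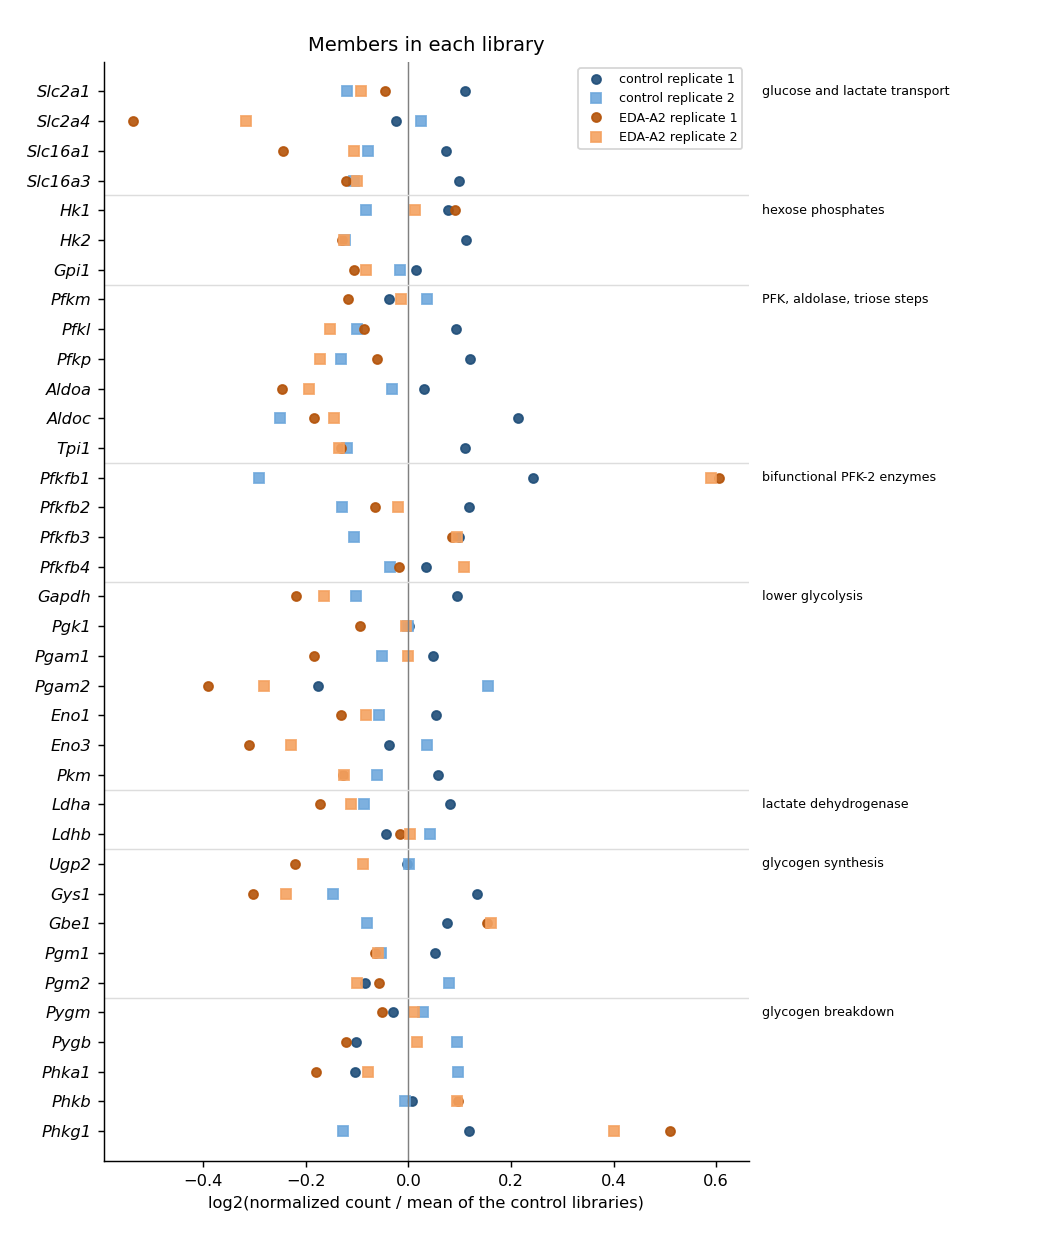
Normalised count of each gene in each of the 4 libraries, as the log2 of its ratio to the mean of the control libraries, grouped by role. Control replicate 1 (dark blue circles) lies right of control replicate 2 (light blue squares) in 26 of the 36 genes. Slc2a4, Pgam2 and Eno3 are among the 16 genes with both EDA-A2 libraries (orange) left of both controls.

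Lactate dehydrogenase turns pyruvate into lactate and back. Ldha, the lactate dehydrogenase of muscle that favours lactate, had 72996 and 64988 counts in the controls and 61209 and 63827 with EDA-A2. The groups did not overlap, and the log2 fold change of -0.14, with an interval from -0.30 to 0.02, did not pass the test (edgeR adjusted p = 0.413). Ldhb, the heart form, had 646 and 686 counts in the controls and 659 and 667 with EDA-A2, with a log2 fold change of -0.01 and an interval from -0.20 to 0.19.

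In glycogen synthesis Pgm1 converts glucose-6-phosphate to glucose-1-phosphate, Ugp2 makes UDP-glucose, Gys1 is the muscle glycogen synthase and Gbe1 adds branches. Pgm2 was listed in the same group. Of the 5 genes 4 were lower and 1 higher, and none passed the adjusted threshold, though 3 had an unadjusted p under 0.05. Gys1 had 20185 and 16625 counts in the controls and 14913 and 15600 with EDA-A2. Both treated libraries lay under both controls, which differed from each other by more than control replicate 2 differed from either treated library. Its log2 fold change was -0.27 ± 0.09 (SE) (edgeR adjusted p = 0.0933). Gbe1 had 4185 and 3756 counts in the controls and 4419 and 4441 with EDA-A2. Both treated libraries of Gbe1 lay over both controls, with a log2 fold change of 0.16 and an interval from 0.01 to 0.31 (edgeR adjusted p = 0.296). Ugp2 was at -0.15 on the log2 scale, Pgm1 at -0.06 and Pgm2 at -0.08.

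In glycogen breakdown Pygm and Pygb are the muscle and brain glycogen phosphorylases, and Phka1, Phkb and Phkg1 encode subunits of phosphorylase kinase. None of the 5 genes was called and 0 had an unadjusted p under 0.05. Pygm had 9081 and 9458 counts in the controls and 8951 and 9341 with EDA-A2. Its groups overlapped, and its log2 fold change of -0.02, with an interval from -0.16 to 0.12, was the smallest in size of the muscle forms. Pygb had 945 and 1083 counts in the controls and 932 and 1026 with EDA-A2, with a log2 fold change of -0.05. Phka1, the muscle alpha subunit, had 1063 and 1222 counts in the controls and 1009 and 1082 with EDA-A2, and its log2 fold change of -0.13 was the lowest of the 5. Phkg1, the muscle catalytic subunit, was scarce, with 29.9 and 25.2 counts in the controls and 39.2 and 36.4 with EDA-A2. It was the single muscle form with a higher mean, and the interval of its log2 fold change ran from -0.20 to 1.11. Phkb differed by 0.10 on the log2 scale.

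The ratio of a muscle or muscle-leading form to its counterpart within a library does not depend on scaling between libraries, and 10 such ratios were formed from raw counts. Slc2a4 over Slc2a1 had log2 ratios of -4.80 and -4.52 in the controls and -5.16 and -4.89 with EDA-A2. Both treated libraries lay under both controls, with a shift of -0.36, the largest of the 10. Eno3 over Eno1 had log2 ratios of -2.28 and -2.09 in the controls and -2.37 and -2.33 with EDA-A2, a shift of -0.16. For Hk2 over Hk1 the log2 ratios were -0.01 and -0.09 in the controls and -0.27 and -0.19 with EDA-A2, a shift of -0.18. The groups did not overlap for these 3 ratios, and the two-sided exact permutation test gave p = 0.333 for each, the smallest p that 2 libraries against 2 can give. Leaving out 1 control library moved the shift of Eno3 over Eno1 to -0.07 (without control replicate 2) or -0.26 (without control replicate 1), and that of Slc2a4 over Slc2a1 to -0.22 or -0.50. Without EDA-A2 replicate 1 the shift of Slc2a4 over Slc2a1 was -0.23. From the edgeR fit, with the errors of the paired genes taken as independent, the shift had a 95% interval from -0.63 to -0.08 for Slc2a4 over Slc2a1, from -0.38 to 0.05 for Eno3 over Eno1 and from -0.41 to 0.05 for Hk2 over Hk1. For Slc2a4 over Slc2a1 the SE from the fit was 0.130. The log2 ratio itself had an SD of 0.196 in the controls and 0.187 with EDA-A2. The independence of the errors was not tested, and the interval of that ratio may be too narrow.

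The other 7 ratios overlapped between the groups. Pgam2 over Pgam1 had log2 ratios of -1.16 and -0.73 in the controls and -1.14 and -1.21 with EDA-A2, so its shift of -0.23 came with a gap of 0.43 between the controls themselves. The interval of that shift ran from -0.50 to 0.01. Ldha over Ldhb shifted by -0.13 with an interval from -0.39 to 0.12, and Aldoa over Aldoc by -0.07 with an interval from -0.55 to 0.43. Pfkm over Pfkl, Pfkm over Pfkp, Pygm over Pygb and Slc16a3 over Slc16a1 had shifts between 0.03 and 0.07, each with an interval that included 0. Pfkm enters 2 of the 10 ratios, so these are not independent.

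**Figure D3:**
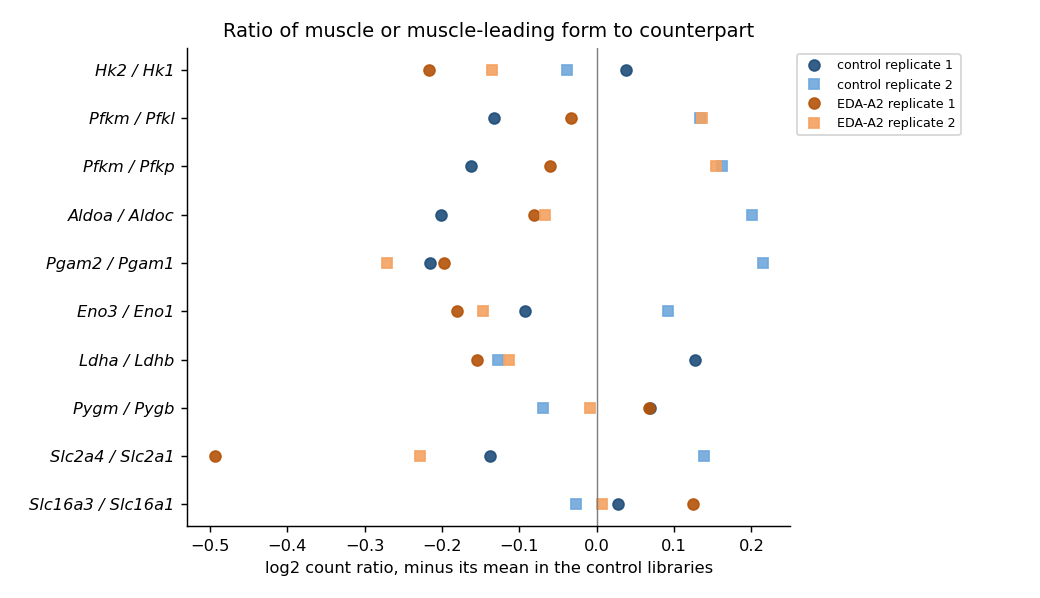
Log2 ratio of raw counts of the muscle or muscle-leading form to its counterpart in each library, minus the mean of the control libraries. The orange EDA-A2 points lie left of both blue control points for Slc2a4 over Slc2a1, Eno3 over Eno1 and Hk2 over Hk1, and between or beyond them for the other 7 ratios.

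The control libraries differed from each other in these genes. Control replicate 1 was over control replicate 2 in 26 of the 36 members, with a median log2 difference of 0.12, against -0.001 over all genes tested, whereas the EDA-A2 libraries differed by a median of -0.04. Of the 27 members other than the muscle forms 23 were higher in control replicate 1, with a median of 0.15, against 3 of the 9 muscle forms, with a median of -0.06. The same held for 12 of 13 listed targets of the hypoxia-inducible factors outside the pathway, with a median of 0.19, while 0 of the 5 dividing-cell markers were higher in control replicate 1, with a median of -0.24. What this difference owes to the cultures or the libraries was not tested. Against control replicate 1 alone the median log2 fold change of the 27 other members was -0.15, and against control replicate 2 alone it was -0.02. For the 9 muscle forms the corresponding medians were -0.16 and -0.13.

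Both calls depended on the libraries used. With either control library left out, no member was called lower, and the same was true of every gene tested, with 1 residual degree of freedom and the lone library assumed to vary like the other group. Slc2a4 was called when EDA-A2 replicate 2 was left out and not when EDA-A2 replicate 1 was, and its log2 fold change ran from -0.54 to -0.32 over the 4 omissions. The log2 fold change of Eno3 ran from -0.31 to -0.23 over the same omissions, and it was called in none of them. Neither gene was called with total counts as the scale or with no filter on low counts. DESeq2's Wald test did not call Slc2a4 (adjusted p = 0.0777) and called Eno3 (adjusted p = 0.00808). Over the alternatives that kept all 4 libraries, by edgeR or DESeq2, the adjusted p of Slc2a4 ran from 0.0076 to 0.241. That of Eno3 ran from 0.00808 to 0.194. The log2 fold change of Pgam2 ran from -0.49 to -0.16 over the 4 omissions and that of Gys1 from -0.41 to -0.13. In both cases the extremes were set by which control library was left out.

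**Figure D4:**
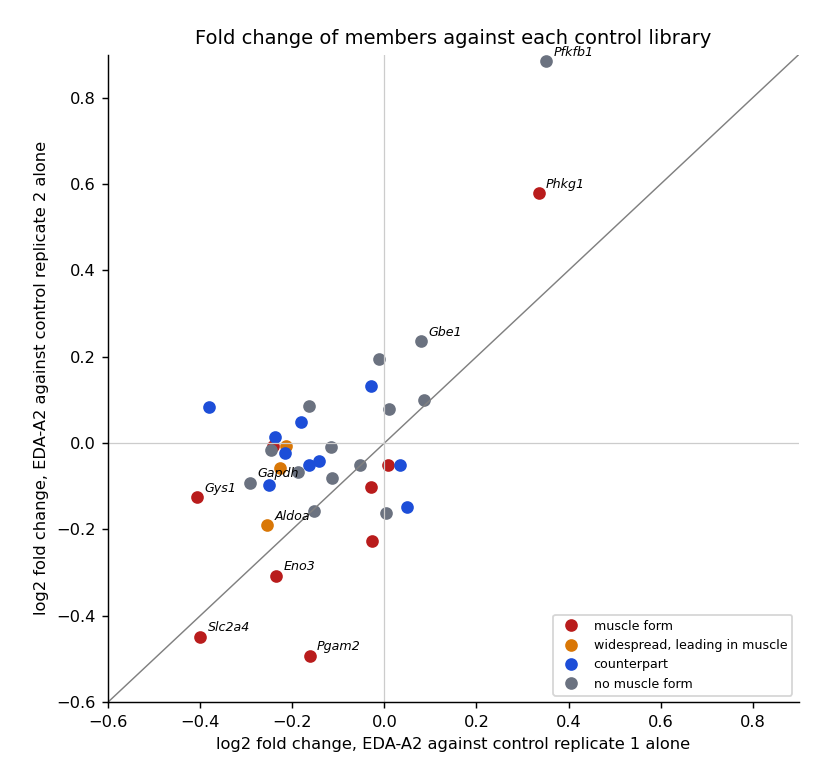
Log2 fold change of each of the 36 genes with control replicate 2 as the only control (vertical axis) against that with control replicate 1 as the only control (horizontal axis); the grey diagonal marks equal values. Slc2a4 and Eno3 lie near the diagonal, Pgam2 lies under it, and most members other than muscle forms lie over it.

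Levels were compared between genes only per length, in TPM, counts per kilobase of the union of annotated exons scaled to 1 fixed total in every library. In the control libraries the most abundant members were Gapdh at 4521 TPM, Pgk1 at 3808, Aldoa at 3432 and Tpi1 at 3023, and the least abundant was Phkg1 at 0.425 TPM. This order depended on the length used. Per canonical transcript Gapdh stayed first, followed by Aldoa at 6472 TPM, Pkm at 4357 and Ldha at 3617. Tpi1 then ranked 6 and Pgk1 ranked 7 among the members, and Phkg1 stayed the least abundant. Slc2a1 stood at 532 TPM and Slc2a4 at 18.9, so that Slc2a1 made up 96.6% ± 0.452 (SD, n = 2) of the summed level of both carriers in the controls and 97.3% ± 0.341 with EDA-A2. Eno3 made up 31.6% ± 1.95 of the enolase level in the controls and 29.2% ± 0.341 with EDA-A2. Pgam1 and Pgam2 were near parity, with Pgam2 at 52.7% ± 5.26 in the controls and 48.7% ± 0.898 with EDA-A2. Pfkm held 66.0% of the phosphofructokinase level in the controls, Pygm 96.04% of the phosphorylase level, Ldha 99.0% of the lactate dehydrogenase level, Aldoa 99.9% of the aldolase level, and Pfkfb3 84.6% of the Pfkfb level. Thus the muscle form led its family for phosphofructokinase and glycogen phosphorylase, and the widespread form for glucose carriers and enolase, under each of 3 length definitions. The order of the hexokinases differed with the length used: Hk2 held 50.6% per exon union, 35.4% per longest transcript and 34.7% per canonical transcript.

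Reads of some members could be shared with other genes. In windows of 100 bases along the canonical transcript, 0% of Slc2a4 windows occurred in or overlapped another annotated gene, and 2.7% of Eno3 windows overlapped a gene on the opposite strand. For Pgam2 75.1% of windows overlapped Dbnl on the opposite strand, and for Phkg1 51.0% overlapped Sumf2. Gapdh had identical copies of 78.0% of its windows in 96 other genes, Pgk1 of 67.0% in 3, Eno1 of 51.9% in 6 and Pgam1 of 39.2% in 2. For Aldoa 85.3% of windows overlapped Gm57854, a gene annotated on the same strand. Counts of these genes are uncertain to the extent that reads were dropped or split, and the strand setting of the counting is not given in the sources used here. Adding the counts of pseudogenes and retrocopies named after a member moved none of the 10 log2 ratio shifts by as much as 0.01. Several shifts, such as that of Slc2a4 over Slc2a1 at -0.3619, were the same with and without them. Neither Slc2a4 nor Slc2a1 had a window copied in another gene, so for that ratio the addition tested nothing. Copies under other names, such as Gm4735 for Eno1, were not added. Reads dropped as not unique cannot be recovered in this way, so the effect of shared reads was not measured.

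The other genes of the pathway were taken from a list of 73, with 57 passing the filter, 38 lower and 19 higher, and their median log2 difference was -0.05. The 16 that did not pass the filter included Hk3, Pgk2 and Gys2, which were at 0 in every library. Of the 57, 2 rose and 1 fell, together 5.26%, against 2.45% of all genes tested that rose and 2.13% that fell. Slc2a6, which encodes GLUT6, a sugar transporter of intracellular membranes, had 389 and 317 counts in the controls and 1011 and 1031 with EDA-A2. The treated libraries were far over the controls, with a log2 fold change of 1.53 and an SE of 0.11 (edgeR adjusted p = 5.01e-07). No member and no other gene of the pathway list differed by as much. With either control library left out Slc2a6 was not called, with log2 fold changes of 1.39 and 1.69. Stbd1, which encodes a glycogen-binding protein linked to glycogen traffic to lysosomes, had 19101 and 14763 counts in the controls and 12272 and 12866 with EDA-A2. Its groups did not overlap, and it fell by 0.43 on the log2 scale with an SE of 0.10 (edgeR adjusted p = 0.0173). Against control replicate 2 alone the log2 fold change of Stbd1 was -0.23 and against control replicate 1 alone -0.61, and it was called in neither case, nor with no filter or without EDA-A2 replicate 1.

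The third call was Ero1a, an oxidase of the endoplasmic reticulum listed among hypoxia-inducible targets, with 77982 and 75372 counts in the controls and 89754 and 95577 with EDA-A2 (log2 fold change 0.27, edgeR adjusted p = 0.0421). The call of Ero1a was lost with any 1 library left out, with no filter and when each library had to hold 10 counts or more. It was the only 1 of the 13 listed hypoxia-inducible targets to be called, and 9 of the 13 were lower, with a median of -0.05. Among the 14 carriers and carrier partners tested, 11 were lower. An unadjusted p under 0.05 was found for 7 (50%), against 15.6% of all genes tested. Of these, Slc2a6 and Tbc1d4 (0.21) were higher. The lower ones were Slc2a3 at -0.47, Slc2a8 at -0.25, Mpc1, a subunit of the mitochondrial pyruvate carrier, at -0.26, its partner Mpc2 at -0.25, and Bsg, the chaperone of monocarboxylate carriers, at -0.20. Only Slc2a6 passed the adjusted threshold. Of the 16 other glycogen genes tested 1, Stbd1, was called, and of the 8 other enzymes and the 6 regulators tested 0 were called, also at an unadjusted p under 0.05.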

How the data were processed

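RNA of 4 libraries, 2 control and 2 EDA-A2, was prepared by the authors with a stranded poly(A) kit and sequenced as 100-base read pairs. Per the labels, the submitters' processing notes name FastQC 0.11.9, MultiQC 1.12, Trim Galore 0.6.5, STAR 2.7.3a, HTSeq 0.11.1 and the GRCm39 build. The deposited values are raw counts of read pairs per Ensembl gene; the annotation release and strand option are not given in the sources used here. The 5 summary lines of each table (no feature, 6.68% to 7.40% of pairs; ambiguous; not unique, 4.56% to 4.76%) were left out. Symbols, positions, lengths and promoters came from GENCODE annotation of GRCm39, which matched 52610 of 53647 genes.

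Counts were tested with edgeR 4.0.16 (R 4.3.3): TMM, filterByExpr, glmQLFit and glmQLFTest on condition, Benjamini-Hochberg adjustment over all 15173 genes tested and a threshold of 0.05. The filter asked for at least 10 counts, scaled to library size, in as many libraries as a group holds, and for 15 in total. The SE is the log2 fold change over the square root of F, and intervals use the fit's degrees of freedom. Alternatives were DESeq2 1.42.0 (Wald test and size factors), total counts, 2 other filters, a replicate block, each library left out, other gene lengths, and ratios with pseudogene counts. The fit was also run on simulated counts, with planted changes larger than those of the called members. That run says nothing on changes of their size. A count of 3, taken as the detection floor, is 0.101 to 0.102 CPM; it covers counting error only.

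The study's methods describe gene set enrichment and a general test between 2 groups, but no model for counts of single genes in these libraries. The members, lists and named genes were chosen with earlier results of these data known. Values were given in full for called members, for both genes of each ratio and for the highest and lowest log2 fold change in each role group.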

Additional observations from a re-analysis of the deposited data

How the results depend on the processing

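The depth limits the scarce genes Phkg1, Pfkfb1 and Aldoc, whose intervals were wide, and 2 libraries a group limit all others. With the other settings that kept all 4 libraries, 211 of 216 member values kept their sign; total counts turned Pfkfb2 (0.0142), Pgk1 (0.00595), Ldhb (0.0483), Pygm (0.0352) and Pygb (0.00321) to higher. Members that fell, all of them muscle forms except where stated, numbered 0 with no filter, 0 with total counts, 4 with the replicate block (Slc2a4, Pgam2, Eno3 and Gys1), 3 by DESeq2, of which 1 (Aldoa) was no muscle form, and 0 to 2 with 1 library left out. Over all genes, 371 rose and 323 fell; no filter, which tested 25545 genes, gave 64 and 22, the block 537 and 529, total counts 485 and 194, and leaving out 1 library 7 to 223 and 0 to 193. Of the pathway list 1 gene rose with no filter and with at least 10 counts in every library, and 0 to 1 with 1 library left out; 0 fell with no filter, 2 with the block, and 0 to 1 with 1 library left out. The median of the members was -0.045 with total counts and -0.158 to -0.0503 with 1 library left out, that of the muscle forms -0.075 and -0.18 to -0.13, and that of the other members -0.153 to -0.0216 with 1 library left out.

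Deviations of the libraries numbered 1 in the 2 groups correlated at 0.058 over 15173 genes, which is across genes of the same libraries. With 2 libraries a group, this value cannot tell whether the replicate numbers of the labels pair the libraries. The main fit treated them as unpaired. With 1 library left out, the sign turned at 1 end of the range for Slc2a1 (-0.181 to 0.0481), Hk1 (-0.028 to 0.132), Pfkp (-0.238 to 0.0127), Aldoc (-0.38 to 0.0841), Pfkfb2 (-0.164 to 0.0857), Pfkfb3 (-0.0106 to 0.194), Pfkfb4 (-0.0176 to 0.109), Ldhb (-0.0509 to 0.0347), Pgm2 (-0.161 to 0.00337), Pygm (-0.0507 to 0.0111) and Pygb (-0.148 to 0.0486); none was called. The causes of these moves were not tested, except that leaving out a library lowers the degrees of freedom and dropping the filter adds genes to the adjustment. Of 60 values of the ratio shifts under other settings 7 changed sign, none of them for Slc2a4 over Slc2a1, Eno3 over Eno1 or Hk2 over Hk1. The canonical transcript length was added after the exon unions were seen.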
